A study of Mus musculus with 4 samples.

Results

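The DNA replication machinery was followed through an RNA immunoprecipitation of Cpeb4 from mouse fetal liver erythroblasts, the immature nucleated red cells. The 44 genes were taken from a list of the proteins that license origins, unwind and copy DNA, join the new strands and supply deoxynucleotides, and all 44 were matched by gene symbol among the 23185 probe sets that carry 1 gene symbol. No filter on level was applied, so every gene of the list was tested. The source was liver of E14.5 fetuses, from which magnetic beads had drawn the cells positive for Ter119, an antigen of maturing red cells. Cpeb4 belongs to the family of proteins that bind cytoplasmic polyadenylation elements in mRNAs and control their translation. The arrays were 2 biological replicates of the immunoprecipitate (IP) made with an anti-Cpeb4 antibody, 1 control precipitate made with IgG from rabbit, and 1 sample of the input, the RNA before precipitation. All 4 arrays came from cells with no genetic change or drug named in the labels. The mouse strain, the pooling of livers, and whether the control arrays shared a cell preparation with either IP replicate were not given in the sources used here. Unless stated otherwise, values are deposited log2 expression values and differences are IP minus control on that log2 scale.

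Replication starts at origins that are bound by the origin recognition complex, which with Cdc6 and Cdt1 loads the ring of Mcm2 to Mcm7 onto DNA before S phase. Cdc45 and the GINS complex turn that ring into the working helicase, polymerase alpha with primase lays down primers, and polymerases epsilon and delta extend them with the clamp Pcna. In erythroblasts, rapid cell cycles accompany maturation, and replication ends when the cells leave the cycle before they lose the nucleus.

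The IP replicates were close for the 44 genes, with a median difference between them of 0.07 and a largest of 0.53, at Rfc4. Over all genes the SD of the values was 1.74 on the IgG array, 2.15 on the input array, and 2.07 and 2.09 on the IP arrays. Of 11 erythroblast markers chosen for a check of the label, 9 were measured, at 9.48 to 12.2 on input, and all 9 stood above that array's median of 4.17. Their median difference from input was -0.37 in the IP, and 6 were lower and 1 higher by the test described below. Some markers of other cells rose against input and none fell. Of 8 neutrophil markers 7 were higher in the IP than in input, with a summed linear level of 746 on input, 1800 on IgG and 2730 and 2716 in the IP replicates. Of 6 megakaryocyte markers 5 were higher, with sums of 974, 1841, 3294 and 3576 in the same order. Of 7 hepatocyte markers 4 were higher, with sums of 130.2, 241, 537 and 624, and 3 of 8 macrophage markers were higher, with sums of 179, 248, 399.9 and 468. Endothelial markers (1 of 5 higher) summed to 82.2, 89.1, 172 and 147, and the 4 lymphocyte markers (0 of 4 higher) to 34.4, 52.8, 35.7 and 36.0. The part of these other cells in the results on replication genes was not tested. In bulk RNA, fewer cells of a type and less RNA per cell cannot be told apart.

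Most replication genes stood in 1 order across the arrays. In 35 of 44 genes input was above both IP replicates and both were above IgG, an order found in 13.6% of all genes, in 31.2% and 39.6% of those at or above the 60th and 80th percentile of mean level, and in 61.5% of the 65 other S phase genes described last. The part of this order above IgG depended on the scaling, since after quantile normalization again the IP mean of 16 of the 35 was still above IgG. In 4 genes (9.09%), Cdc45, Rpa3, Tyms and Tk1, both IP replicates were below both controls. That order was no rarer elsewhere, with 2588 of all 23185 genes. It held for 1105 of the 9274 genes at or above the 60th percentile and 495 of the 4637 at or above the 80th. The other 5 replication genes, Orc1, Orc2, Orc4, Pole and Pold1, had neither order. Both comparisons share the IP arrays, so each is given with its own values.

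**Figure D1:**
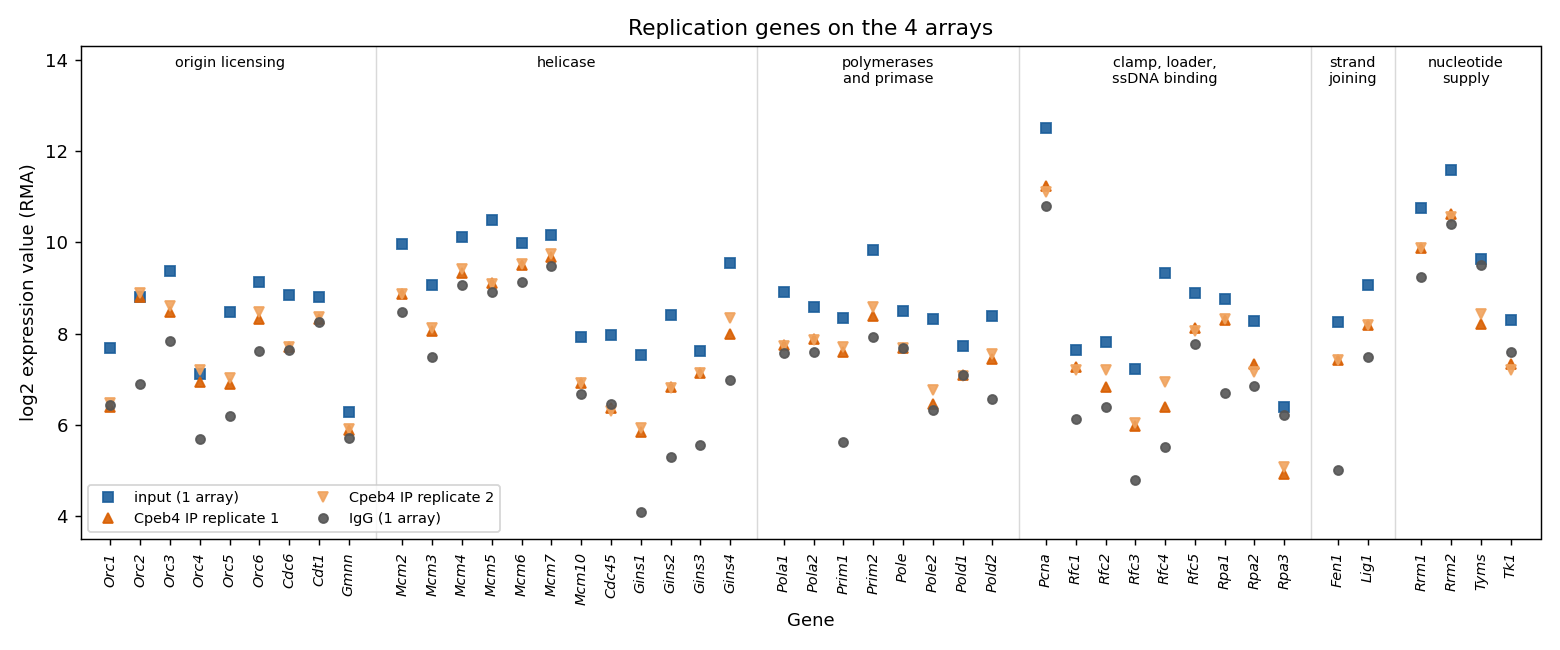
Deposited log2 expression value (vertical axis) of each of the 44 replication genes (horizontal axis, grouped by role) on the input array, the IgG array and both Cpeb4 IP replicates, with 1 point per array. Input is the highest point for nearly all genes, both IP points lie at input level for Orc2 and Orc4, and they lie below both controls for Rpa3 and Tyms.

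Promoter sequence was not used in the choice of genes, and it was searched for the site of E2F, the family of factors that switches on S phase genes. RefSeq promoters (build GRCm38.p6, 250 bases before to 50 after the start) were found for 36 of the 44 genes by gene ID, and Mcm4, Gmnn, Gins1, Gins2, Gins4, Prim2, Pole and Rfc2 were not matched. The site was searched on both strands as TTT, 2 bases that are each C or G, and CGC. It was present in 14 of 36 promoters (38.9%), against 2.60% of the 27025 genes in the table and 3.26% of those with a symbol on the array. The CCAAT box, also searched on both strands, was in 23 of 36 (63.9%), against 41.1% of all genes, and the cell cycle homology region (TTTGAA or TTTAAA) was in 9 of 36 (25.0%), against 30.6%. The windows below hold the site wholly before the start and are shown to let the sites be compared between licensing, helicase and polymerase genes. Capitals mark the matched bases, and in Mcm5 and in this window of Mcm6 matches on both strands overlap.
Orc1 (chr4:108579415-108579446, + strand): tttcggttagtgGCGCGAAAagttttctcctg
Orc3 (chr4:34614964-34614995, - strand): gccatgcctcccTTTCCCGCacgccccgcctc
Cdc6 (chr11:98908001-98908032, + strand): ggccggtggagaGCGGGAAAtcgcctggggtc
Mcm5 (chr8:75109344-75109379, + strand): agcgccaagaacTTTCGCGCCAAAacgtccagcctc
Mcm6 (chr1:128359792-128359827, - strand): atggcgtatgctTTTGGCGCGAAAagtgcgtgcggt
Mcm7 (chr5:138172029-138172060, - strand): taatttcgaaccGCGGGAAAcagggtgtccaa
Gins3 (chr8:95633506-95633537, + strand): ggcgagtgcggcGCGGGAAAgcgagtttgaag
Pola1 (chrX:93632274-93632305, - strand): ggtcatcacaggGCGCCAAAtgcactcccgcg
Genes with and without a match had like differences from input, with medians of -0.94 over the 14 and -0.93 over the 22. Against IgG the medians were 0.24 and 0.51. A match is a description of the letters and not a measured site.

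Compared with total input, which asks how the RNA that came down with Cpeb4 differs from the RNA at the start, replication transcripts were lower in the IP as a group. By limma, 39 of 44 genes (88.6%) fell and none rose, where 11.1% of all genes fell and 7.01% rose. At least 2-fold lower in both replicates were 18 of 44 (40.9%), where 3.27% of all genes were, and none was 2-fold higher, against 2.49%. The median difference was -0.94, with -0.95 and -0.92 in the replicates, where the median of all genes was 0.00. The genes not called were Orc2, Orc4, Gmnn, Gins3 and Rfc1. The only spread in this test was that of the IP pair, and the single input array was assumed to vary likewise. With ties between IP replicates taken as a spread of 0, 17 of 44 passed as lower, against 7.38% of all genes.

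Replication genes have high values, and high genes were more often called. Among the 9274 genes at or above the 60th percentile of mean level, which hold all 44, 28.6% fell by a fit to those genes, 7.13% were at least 2-fold lower and the median difference was -0.05, while 41 of 44 replication genes fell in that fit. Among the 4637 genes at or above the 80th percentile, a level chosen after the data were seen, the shares were 40.3% and 8.32%, and 38 of the 40 replication genes there fell. After quantile normalization again the median of the 44 was -0.82 and 14 were at least 2-fold lower, against 2.18% of all genes. The limma test then called 0 genes of all 23185 against input, with 6343 at an unadjusted p under 0.05, of which 40 were replication genes (lowest adjusted p = 0.0519). That fit had 43 probe sets tied between the IP replicates in place of 5537, and a prior of 1.3 degrees of freedom in place of 5.41. A fit without the IgG array, added after the data were seen, could hardly differ and was no check. The IgG array enters neither the difference from input nor the spread of the IP pair.

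**Figure D2:**
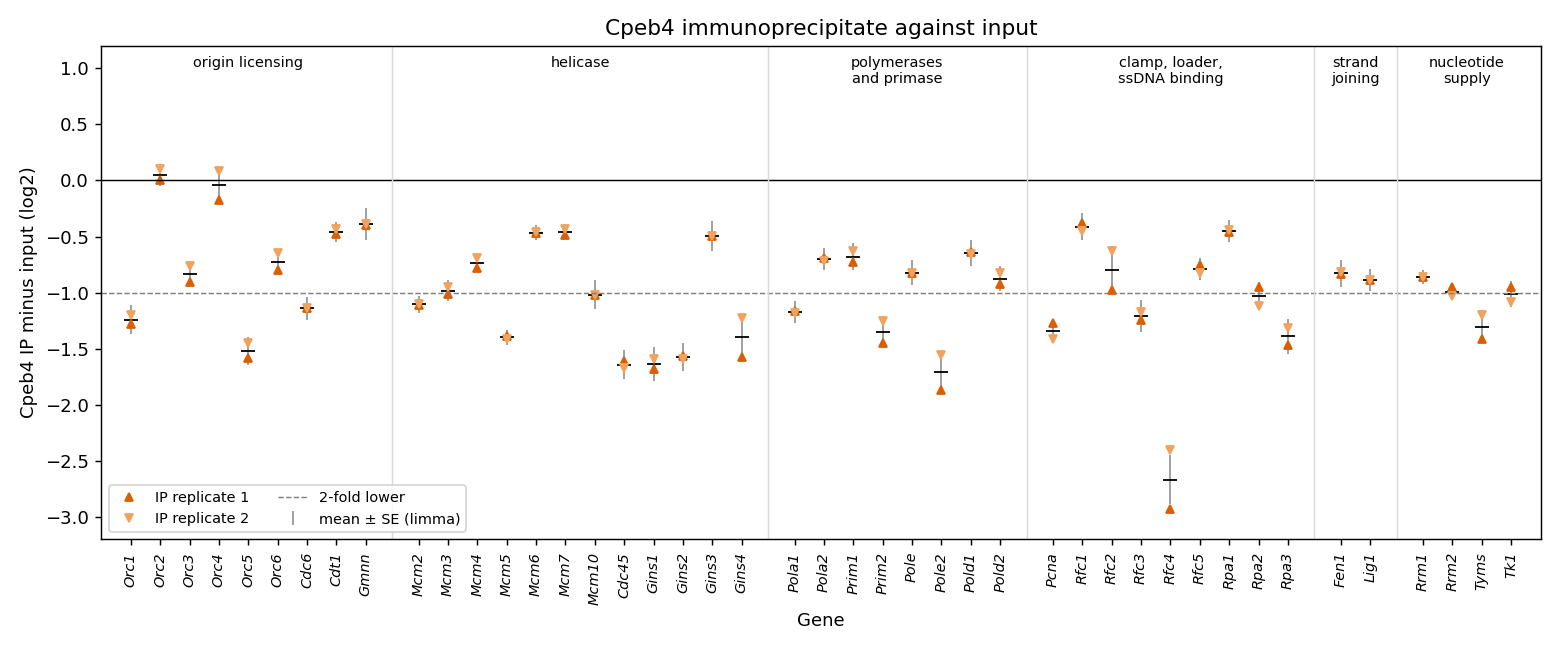
Difference of each Cpeb4 IP replicate from the input array (vertical axis, log2; triangles) for the 44 replication genes (horizontal axis, by role), with the mean and its limma standard error as bars. All but Orc2 and Orc4 lie below 0 in both replicates, and Rfc4 is the lowest at -2.67.

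**Figure D3:**
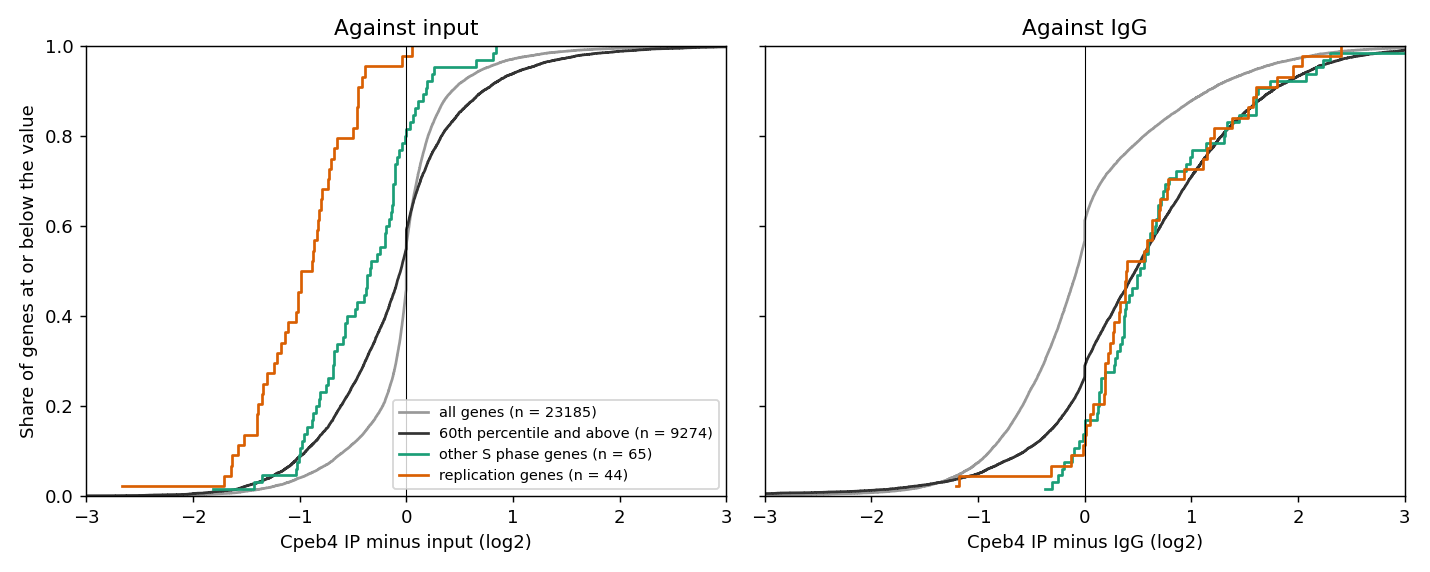
Share of genes at or below each difference (vertical axis) for Cpeb4 IP minus input and IP minus IgG (horizontal axes, log2), over all 23185 genes, the 9274 at or above the 60th percentile of mean level, 65 other S phase genes and the 44 replication genes. Against input the replication genes lie to the left of the other curves, and against IgG they lie near the genes of the 60th percentile and above.

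The origin recognition complex was divided. Orc2 stood at 8.80 on input, 6.89 on IgG and 8.80 and 8.90 in the IP replicates. Orc4 stood at 7.12 on input, 5.69 on IgG and 6.94 and 7.20 in the IP. These subunits were close to input in the IP and above IgG in both replicates, with differences from input of 0.05 and -0.04 (limma adjusted p = 0.99 and 1) and from IgG of 1.96 and 1.38 (adjusted p = 2.54e-05 and 0.000622). Orc1, the subunit whose protein rises and falls with the cell cycle, had 7.69 on input, 6.43 on IgG and 6.41 and 6.49 in the IP. Orc5 had 8.48, 6.19 and 6.90 and 7.03 in the same order. Both fell against input by over 2-fold, Orc1 by 1.24 and Orc5 by 1.52 on the log2 scale (adjusted p = 0.00127 and 0.000544). The difference of Orc1 from IgG did not pass (0.01 ± 0.13 SE, adjusted p = 0.992). Orc3 had 9.38 on input, 7.85 on IgG and 8.48 and 8.61 in the IP, and Orc6 had 9.12, 7.62 and 8.33 and 8.47. They lay between the controls and fell against input by 0.84 and 0.72 (adjusted p = 0.00193 and 0.00411).

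The loading factors and their inhibitor were near IgG. Cdc6, which loads the helicase ring, had 8.85 on input, 7.65 on IgG and 7.71 in both IP replicates, a 2.21-fold fall against input (limma adjusted p = 0.00167). Cdt1, its partner in loading, had 8.80 on input, 8.26 on IgG and 8.32 and 8.36 in the IP, and fell by 0.46 (adjusted p = 0.0143). Geminin (Gmnn), which binds and blocks Cdt1, had 6.29 on input, 5.71 on IgG and 5.89 and 5.91 in the IP. Its difference of -0.39 from input did not pass (adjusted p = 0.137). None of the 3 passed against IgG, with differences of 0.05, 0.08 and 0.19.

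All subunits of the Mcm2 to Mcm7 ring fell against input, but by unequal amounts. Mcm5 had 10.50 on input, 8.91 on IgG and 9.12 and 9.08 in the IP, and Mcm2 had 9.97, 8.47 and 8.86 and 8.87. These had the largest falls of the ring, 2.64-fold and 2.15-fold (limma adjusted p = 0.000142 and 0.000314). Mcm3 had 9.07 on input, 7.50 on IgG and 8.06 and 8.12 in the IP, a fall of 0.98. Mcm4 had 10.12, 9.06 and 9.34 and 9.42, a fall of 0.74. Mcm6 and Mcm7 were closest to input. Mcm6 had 9.98 on input, 9.14 on IgG and 9.52 in both IP replicates after rounding. Mcm7 had 10.17, 9.49 and 9.68 and 9.74. Each fell by 0.46 on the log2 scale (adjusted p = 0.00423 and 0.00403), 1.38-fold.

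Among the factors that activate the ring, Cdc45, Mcm10, Gins1, Gins2 and Gins4 were more than 2-fold below input. Cdc45 had 7.98 on input, 6.46 on IgG and 6.37 and 6.30 in the IP, a 3.12-fold fall against input (limma adjusted p = 0.000467). Its difference from IgG did not pass (-0.13 ± 0.13 SE, adjusted p = 0.488). Mcm10, which acts in activation and at the fork, had 7.94 on input, 6.68 on IgG and 6.92 in both IP replicates, a fall of 1.02. The GINS subunits, unlike Cdc45, all rose against IgG. Gins1 had 7.53 on input, 4.10 on IgG and 5.85 and 5.94 in the IP. Gins2 had 8.40, 5.30 and 6.84 and 6.81. Gins4 had 9.56, 6.99 and 7.99 and 8.34. These 3 fell 3.11-, 2.98- and 2.63-fold against input and were 3.48-, 2.89- and 2.25-fold above IgG (adjusted p against IgG 0.000177, 0.00016 and 0.0012). Gins3 had 7.63 on input, 5.56 on IgG and 7.13 in both IP replicates, and the difference from input, -0.50, did not pass (adjusted p = 0.0617). All 4 GINS genes were low on IgG, at 4.22 to 10.8-fold below input. Gins1 was below the IgG array's median over all genes, 4.52, so its folds rest on a low IgG value.

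The polymerase alpha and primase complex fell against input in all 4 subunits. Pola1, the catalytic subunit of the polymerase, had 8.92 on input, 7.57 on IgG and 7.76 and 7.74 in the IP, a 2.25-fold fall (limma adjusted p = 0.000559). Its partner Pola2 had 8.58, 7.60 and 7.89 and 7.86, a 1.63-fold fall. Neither passed against IgG (adjusted p = 0.194 and 0.061). Prim1, the catalytic subunit of primase, had 8.34 on input, 5.63 on IgG and 7.61 and 7.71 in the IP. It was 4.09-fold above IgG (adjusted p = 4.31e-05) and 1.6-fold below input (adjusted p = 0.00903). Prim2, the large primase subunit, had 9.84 on input, 7.93 on IgG and 8.39 and 8.58 in the IP, 2.55-fold below input (adjusted p = 0.000471). The primase subunits thus differed in their distance from IgG, 2.03 for Prim1 and 0.56 for Prim2.

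The replicative polymerases epsilon and delta all fell against input. Pole2, the accessory subunit of epsilon, had 8.32 on input, 6.34 on IgG and 6.45 and 6.76 in the IP, a 3.27-fold fall (limma adjusted p = 0.000864). The catalytic subunits Pole and Pold1 were at the level of IgG in the deposited values. After quantile normalization again they were below it, by -0.73 and -0.75. Pole had 8.51 on input and 7.68 on IgG and on both IP arrays. Pold1 had 7.74 on input, 7.10 on IgG and 7.10 and 7.08 in the IP. Pole was exactly tied between IgG and both IP replicates, and Pold1 between IgG and IP replicate 1. Pole and Pold1 fell by 0.82 and 0.65 against input (adjusted p = 0.00537 and 0.00993). Pold2, the accessory subunit of delta, had 8.38 on input, 6.57 on IgG and 7.45 and 7.55 in the IP, lower than input by 0.88 and higher than IgG by 0.93 (adjusted p = 0.00296 and 0.000943).

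The clamp and its loader held the largest fall of all. Rfc4, a small subunit of the clamp loader, had 9.34 on input, 5.52 on IgG and 6.41 and 6.94 in the IP. It fell 6.36-fold against input (limma adjusted p = 0.000532), and the IP replicates differed by more than for any other replication gene. Rfc3 had 7.23 on input, 4.80 on IgG and 5.98 and 6.05 in the IP, a 2.31-fold fall. Rfc2 had 7.82, 6.39 and 6.84 and 7.20, and Rfc5 had 8.89, 7.77 and 8.13 and 8.06. Both fell, with differences of -0.80 and -0.79 (adjusted p = 0.0197 and 0.0023). Rfc1, the large subunit, had 7.64 on input, 6.13 on IgG and 7.27 and 7.20 in the IP, and its difference of -0.41 from input did not pass (adjusted p = 0.0669). Pcna, the clamp, had 12.50 on input, 10.79 on IgG and 11.23 and 11.09 in the IP, a 2.53-fold fall (adjusted p = 0.000121).

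The subunits of RPA, the complex that coats unwound strands, went separate ways. Rpa1, the large subunit, had 8.77 on input, 6.71 on IgG and 8.30 and 8.33 in the IP. It was 3.04-fold above IgG (limma adjusted p = 4.92e-05) and 1.37-fold below input (adjusted p = 0.021). Rpa2 had 8.28 on input, 6.86 on IgG and 7.34 and 7.16 in the IP, 2.04-fold below input. Rpa3, the smallest subunit, had 6.40 on input, 6.22 on IgG and 4.94 and 5.08 in the IP. Both IP replicates were below both controls, by 1.21 against IgG and 1.39 against input (adjusted p = 0.00127 and 0.0018). In the deposited values the controls differed by only 0.18 for Rpa3, where Rpa1 differed by 2.06 between them. After quantile normalization again, IgG minus input was 0.52 for Rpa3 and -1.18 for Rpa1.

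The genes of strand joining were higher than IgG and lower than input. Fen1, the nuclease that trims the flaps of lagging-strand fragments, had 8.25 on input, 5.02 on IgG and 7.42 and 7.43 in the IP. It had the largest difference from IgG of the 44 genes, 5.29-fold (limma adjusted p = 2.59e-05), and was 1.77-fold below input (adjusted p = 0.00443). Lig1, the ligase that seals those fragments, had 9.07 on input, 7.49 on IgG and 8.18 in both IP replicates, 1.85-fold below input (adjusted p = 0.00318).

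Nucleotide supply genes all fell against input. Ribonucleotide reductase makes deoxynucleotides from a large subunit, Rrm1, and a small one, Rrm2. Rrm1 had 10.74 on input, 9.25 on IgG and 9.88 in both IP replicates, and Rrm2 had 11.58, 10.40 and 10.62 and 10.55. They fell by 0.86 and 0.99 (limma adjusted p = 0.000837 and 0.000157). Tyms, thymidylate synthase, had 9.63 on input, 9.50 on IgG and 8.21 and 8.43 in the IP. As for Rpa3, the controls were alike in the deposited values. Both IP replicates were more than 2-fold below each, by 1.18 against IgG and 1.31 against input (adjusted p = 0.000265 and 0.000546). After quantile normalization again, IgG minus input was 0.41 for Tyms. Rpa3 and Tyms were the only genes of the 44 at least 2-fold below both controls, a rule met by 0.323% of all genes. Tk1, thymidine kinase, had 8.29 on input, 7.60 on IgG and 7.34 and 7.21 in the IP, lower than input by 1.01 (adjusted p = 0.00176). It was lower than IgG in both replicates, but its difference of -0.32 did not pass (adjusted p = 0.0641).

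The comparison with IgG asks which RNA exceeded the precipitate of a nonspecific antibody. Most replication genes were higher in the IP, as were most genes of high level. By limma 29 of 44 genes (65.9%) rose and 2, Rpa3 and Tyms, fell, where 22.5% of all genes rose and 22.7% fell. Both higher than IgG and lower than input by limma were 25 of 44, against 4.82% of all genes, and lower than both were 2, against 1.73%. In the fit to genes at or above the 60th percentile 53.7% of them and 30 of 44 replication genes rose, and in the fit at or above the 80th 71.1% and 29 of 40 did. At least 2-fold higher in both replicates were 10 of 44 (22.7%), against 11.2% of all genes and 27% and 36% of the genes above those percentiles. The 10 were Orc2, Orc4, Gins1, Gins2, Gins3, Prim1, Rfc1, Rfc3, Rpa1 and Fen1. At least 2-fold lower were 2 of 44, against 6.07% of all genes. None was at least 2-fold above both controls, against 1.5% of all genes. With ties taken as a spread of 0, 16 genes passed as higher, against 17% of all genes. The median difference was 0.39, where all genes had -0.08 and genes at or above the 60th percentile 0.47.

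The direction against IgG depended on the scaling for the smaller differences. Quantile normalization again gave a median of -0.14, with 11 genes called higher and 14 lower, against 21.1% and 21.6% of all genes. Centring each array on its median gave 0.72, with 40 higher, against 39% of all genes. These scalings moved the median of all genes from -0.08 to 0.03 and to 0.25. Of the 29 genes that rose, 18 stayed above IgG after quantile normalization again and 11 went below it, among them Mcm2, Mcm3, Mcm4, Mcm6 and Mcm7 of the helicase ring. Of the 10 genes at least 2-fold above IgG, 7 were also 2-fold above it after quantile normalization again, against 7.7% of all genes: Orc2, Gins1, Gins2, Gins3, Prim1, Rfc3 and Fen1. Rpa3 and Tyms stayed below IgG under all 3 scalings, with differences of -1.71 and -1.63 after quantile normalization again and of -0.89 and -0.86 after centring, where neither was 2-fold. With ties taken as a spread of 0, neither passed as lower than IgG. Against input, all 39 genes that fell stayed below input under both scalings. Orc4, which was not called, went from -0.04 as deposited to 0.11 after quantile normalization again.

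**Figure D4:**
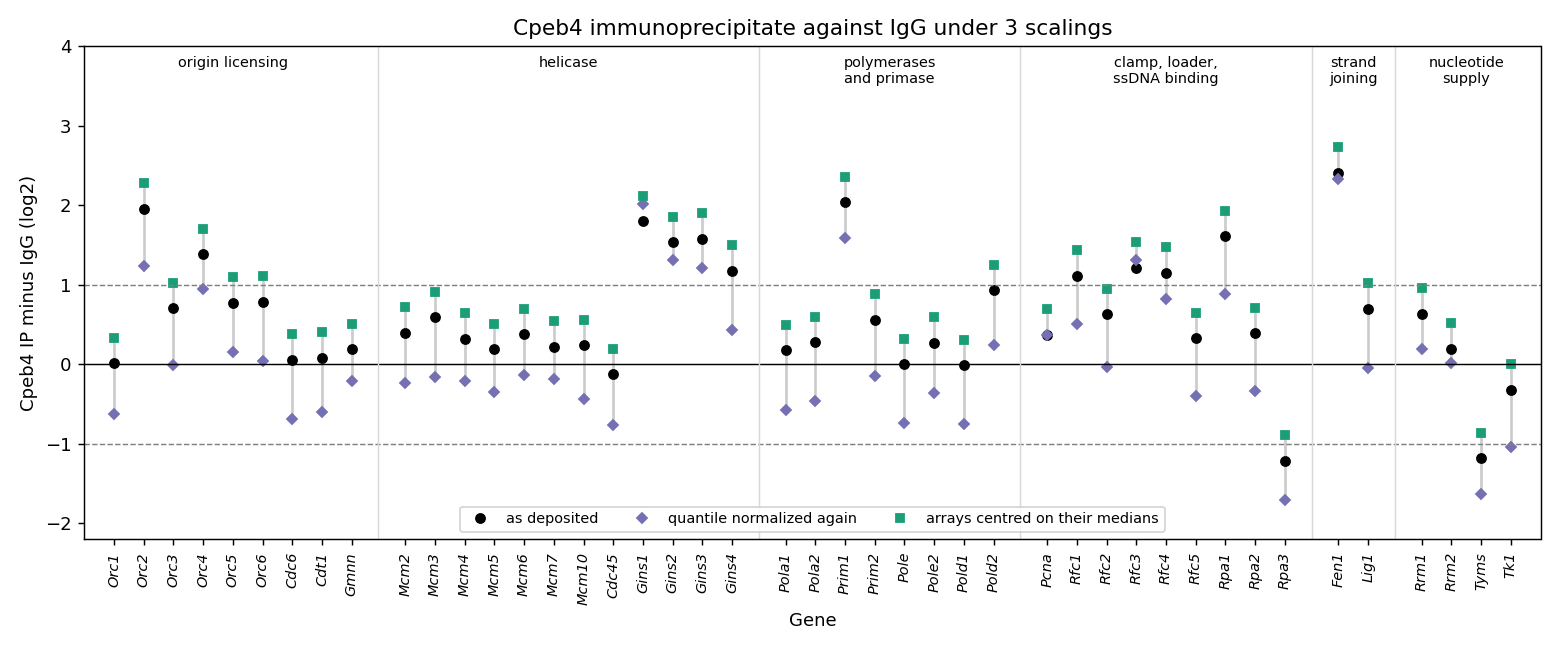
Mean difference of the Cpeb4 IP from the IgG array (vertical axis, log2) for the 44 replication genes (horizontal axis, by role), as deposited, after quantile normalization again and after centring each array on its median. The helicase ring Mcm2 to Mcm7 crosses 0 between scalings, the GINS genes, Prim1 and Fen1 stay above it, and Rpa3 and Tyms stay below.

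Set against each other by size alone, as each is 1 array, IgG was below input for all 44 genes in the deposited values. It was below input for 8433 of all 23185 genes. Among genes of high level it was so for 6798 of the 9274 at or above the 60th percentile and 4013 of the 4637 at or above the 80th. The median difference of the 44 was -1.50. At least 2-fold lower were 34 of 44 (77.3%), against 14.6% of all genes, 34.4% of those at or above the 60th percentile and 44.8% at or above the 80th. The largest were Rfc4, 14.1-fold lower on IgG, Gins1, 10.8-fold, and Fen1, 9.38-fold. The smallest were Tyms and Rpa3, at 1.09- and 1.13-fold. After quantile normalization again the median was -0.70. IgG was then above input for Rpa3 (0.52), Tyms (0.41), Cdt1 (0.30), Pold1 (0.28), Tk1 (0.21) and Pole (0.07). Rfc4, Gins1 and Fen1 were still over 2-fold lower on IgG (-3.32, -3.41 and -2.97). Others of the 34, such as Mcm2 (-0.78) and Mcm4 (-0.44), no longer were.

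Other genes of replication and S phase were described in the same way, with no test between the lists. Of a list of 67, 65 carried a symbol on the array. Against input 31 of 65 fell and 3 rose, where 11.1% and 7.01% of all genes did. In the same fit 2334 of the 9274 genes at or above the 60th percentile fell, and 1548 of the 4637 at or above the 80th. At least 2-fold lower were 4 of the 65, against 3.27% of all genes and 7.13% and 8.32% of those at or above these percentiles. The median difference of the 65 was -0.34. The lowest were Asf1b, a histone chaperone, and Dscc1, a subunit of an alternative clamp loader. Asf1b had 10.62 on input, 9.01 on IgG and 8.68 and 8.93 in the IP, a 3.52-fold fall against input (limma adjusted p = 0.000235). Dscc1 had 5.55, 4.34 and 3.90 and 4.34, a 2.69-fold fall (adjusted p = 0.00609). Its values on IgG and in IP replicate 1 were below the medians of those arrays over all genes, 4.52 and 4.19. IP replicate 2 was exactly tied with IgG for Dscc1. The 3 that rose were E2f3, an activating E2F factor, Dctd, a deaminase in thymidylate supply, and Asf1a, a histone chaperone. E2f3 had 6.97 on input, 6.06 on IgG and 7.64 and 7.96 in the IP, and was higher than input by 0.84 (adjusted p = 0.0128). Dctd was higher by 0.81 and Asf1a by 0.65 (adjusted p = 0.0106 and 0.00298). By role, the medians against input were -0.83 for 6 histone deposition genes, -0.51 for 12 genes of origin firing, -0.37 for 19 accessory fork genes, -0.17 for 20 S phase regulators and -0.12 for 8 other nucleotide supply genes.

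Against IgG, 44 of these 65 genes rose and none fell, where 22.5% of all genes rose, and 53.7% and 71.1% in the fits at or above the 60th and 80th percentile. They had a median of 0.52 that was 0.00 after quantile normalization again. Pole4, a small subunit of polymerase epsilon, had the largest difference, with 7.23 on input, 4.22 on IgG and 7.23 in both IP replicates, 8.05-fold above IgG. Its IgG value was below that array's median over all genes, 4.52. Tipin, which protects stalled forks with Timeless, was next at 4.93-fold (8.37 on input, 5.96 on IgG, 8.28 and 8.25 in the IP). Rnaseh2c and Pold4 were the lowest, with differences of -0.37 and -0.30 that did not pass (adjusted p = 0.12 and 0.156). Of 5 measured markers of cycling cells, 4 fell against input, Mki67 by 0.23, Cdk1 by 0.93, Birc5 by 1.08 and Aurkb by 1.25, while Top2a, which is also among the 65 genes, differed by 0.08 and did not pass (adjusted p = 0.607).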

How the data were processed

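RNA of 4 Affymetrix arrays was analysed: 2 Cpeb4 IP replicates, 1 IgG precipitate and 1 input, grouped by sample title. The deposited values are log2 expression values from RMA and the affy package, per the submitters' processing notes. Versions, probe definition and settings were not given in the sources used here. Probe sets are named by Entrez number, and 23185 of 25206 carried 1 gene symbol in the platform annotation, which can be old. Symbols of the replication genes were matched exactly.

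Differences were fitted over all 23185 with limma 3.58.1 in R 4.3.3 (lmFit with 3 groups, eBayes with trend, 1 residual degree of freedom). RMA values of the IP replicates were tied within 1e-09 for 5537 probe sets. Such ties gave no estimate of spread there, and these probe sets took the prior alone (median prior SD 0.139). Exact ties of an IP replicate with a control also occurred, as for Pole and Pold1 with IgG and for Orc2 and Pole4 with input. An exactly equal value in such a pair may therefore not be a measured agreement. The test was also run on simulated data with ties, in which all 4 arrays had the same spread. That run could not check the assumption that each single control array varies as the IP pair does. P-values were adjusted by Benjamini-Hochberg, and a gene passed below 0.05. "Rose" and "fell" are used of such genes. The spread is between the 2 IP replicates, and the number of arrays limits the precision. The size rule asks for 2-fold in both IP replicates.

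The genes, lists and tests were chosen with earlier results of these data known. All 44 genes are given with their values, with the highest and lowest of the other list against each control. Alternatives were other treatments of ties, trend and spread, filters, scalings, thresholds, both controls as 1 group and leaving out arrays. Transcript ends, where Cpeb4 binds, were not analysed here.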

Additional observations from a re-analysis of the deposited data

How the results depend on the processing

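Against input, the 39 genes lower by limma became 17 when ties were taken as a spread of 0 and 0 after quantile normalization again, and the median of -0.94 became -0.82 after that normalization and -0.97 after centring. The 18 genes at least 2-fold lower became 35 at a 1.5-fold and 1 at a 4-fold threshold, and 19 to 21 without either IP replicate. Against IgG, the 29 higher and 2 lower genes became 16 and 0 with ties as 0, and 11 and 14 after quantile normalization again. With both controls as 1 group, the IP was set against the mean of input and IgG, which is neither comparison above. The gap between input and IgG then counted as spread, so genes with the IP between the controls could hardly be called. In that fit limma called 0 of 23185 genes, with 1044 at an unadjusted p under 0.05. The 10 genes at least 2-fold higher became 16 after centring, 18 at 1.5-fold and 1 at 4-fold, and 10 to 12 without either IP replicate. The 2 genes at least 2-fold lower became 0 after centring, 0 at 4-fold and 1 above the 80th percentile, where Rpa3 was not included. The median of 0.39 was -0.14 after quantile normalization again, 0.72 after centring, and 0.41 to 0.45 without either IP replicate. In IgG minus input, the median of -1.50 was -0.70 and -1.86 under those scalings. Quantile normalization again turned the mean against IgG from above to below it for Mcm2 (-0.24), Mcm3 (-0.16), Mcm4 (-0.21), Mcm5 (-0.35), Mcm6 (-0.13), Mcm7 (-0.18), Mcm10 (-0.44), Orc1 (-0.62), Orc3 (-0.0103), Cdc6 (-0.69), Cdt1 (-0.60), Gmnn (-0.21), Pola1 (-0.58), Pola2 (-0.46), Prim2 (-0.14), Pole2 (-0.36), Rfc2 (-0.0312), Rfc5 (-0.40), Rpa2 (-0.34) and Lig1 (-0.0467), and centring turned it from below to above for Pold1 (0.31), Cdc45 (0.19) and Tk1 (0.00421). After quantile normalization again Pold1, Cdc45 and Tk1 lay further below IgG, at -0.75, -0.77 and -1.04. Pole, level with IgG as deposited, was at -0.73 after that normalization and 0.32 after centring. The 40th and 60th percentile filters, the common-spread test, eBayes without trend and an adjusted p below 0.1 moved no count by over 1.5 times. The fits without a control array could hardly move a count. A control that is left out enters neither the difference from the other control nor the spread. The causes of the changes were not tested. No paired analysis was possible because IgG and input have 1 array each. Each control is a single array, so its own variation was not measured.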
